A study of Homo sapiens with 17 samples.

Results

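The editing that RPS2-STAMP added over Control-STAMP in the PABPN IP was described gene by gene in human HEK293T cells. The members were the genes with an average abundance of at least 5 TPM, a transcript level scaled to gene length and library size, in the PABPN IP. Of the 18869 genes with an editing value, 12403 met that minimum. The value described for each gene is the normalized EPKM, the number of C-to-U edits per kilobase of gene, scaled to the number of mapped reads, with the Control-STAMP editing subtracted. It is never negative, and the files do not say how genes with more editing in Control-STAMP were handled, so a gene with the value 0 is described as listed at 0. The Control-STAMP editing before subtraction is not analysed here.

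Both lines were stable HEK293T lines made by lentiviral transduction and induced with doxycycline at 50 ng/ml for 24 h. RPS2-STAMP carries the cytidine deaminase APOBEC1 fused to RPS2, a protein of the small ribosomal subunit, and Control-STAMP carries APOBEC1 alone. Formaldehyde at 0.1% served to crosslink the cells, and RNA was recovered by immunoprecipitation (IP) of the nuclear poly(A)-binding protein PABPN or of the cytoplasmic poly(A)-binding protein PABPC. The study's text says that the IPs were made from cytoplasm, while the sample labels name no fractionation. The PABPN IP accounts for 6 of the 17 samples, 3 of each line. An Input and a PABPC IP were also sequenced, and the PABPC IP has 2 Control-STAMP samples against 3 of RPS2-STAMP. Editing values were pooled to 1 per gene and fraction, so no value here has a replicate error or a test, and the number of reads behind each gene's value is not given in the files.

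A new mRNA receives a poly(A) tail in the nucleus, where PABPN coats it, and in the cytoplasm PABPC takes the place of PABPN on the tail. An mRNA that still carries the nuclear protein while ribosomes move along it may be at an early stage of translation, often called the pioneer round. The study's text adds that a PABPN IP can potentially also recover transcripts with both proteins on the tail. A deaminase carried on the small ribosomal subunit converts cytidines near the ribosome, so edits collect on transcripts that ribosomes have used. The comparison of RPS2-STAMP with Control-STAMP in this IP asks which PABPN-bound transcripts carry such edits. Mitochondrial mRNAs are translated by a separate ribosome that contains no RPS2, and most histone mRNAs made in S phase are not polyadenylated.

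The abundances were compared with the cell label. Of 9 genes commonly expressed by HEK293 lines, 6 reached a TPM of 5 in the PABPN IP. They included the intermediate filament genes VIM at 144 TPM, NEFL at 31.3, KRT18 at 19.5 and NEFM at 12.9, and the kidney development regulator EYA1 at 6.02. LHX1 at 4.88, KRT8 at 3.12 and PAX2 at 2.41 TPM lay below the minimum. The markers ALB of hepatocytes, PTPRC of leukocytes, HBB of erythroid cells and GFAP of astrocytes are not among the genes of the table. The muscle actin gene ACTA1 had 7.02 TPM and 0.0199 EPKM, and COL1A1, a collagen of fibroblasts, had 4.42 TPM.

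Most genes had an EPKM above 0, and few had a high one. In the PABPN IP 8745 of the 12403 genes had an EPKM above 0, which is 70.5%, and 3658 were listed at 0. The median over all 12403 genes was 0.0284 EPKM, the upper quartile 0.0702, the 95th percentile 0.169 and the 99th percentile 0.315. Only 402 genes reached 0.2 EPKM, 40 reached 0.5 and 4 reached 1. Protein-coding genes numbered 10825 and had a median of 0.0298 EPKM, with 72.0% above 0. The 1578 other genes had a median of 0.0167 EPKM, with 60.3% above 0.

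Genes of higher TPM had a higher EPKM, with wide scatter. EPKM is not divided by TPM, so this does not compare editing per transcript. Across genes, which are not independent replicates, Spearman's rho of EPKM with TPM in the PABPN IP was 0.261 (n = 12403), and among genes above 0 it was 0.333 (n = 8745). Both measures are per kilobase and come from the same libraries. With the genes divided by TPM into 10 equal groups, from the lowest to the highest group the median EPKM went from 0.00577 to 0.0611 and the share above 0 from 58.8% to 76.9%. Of the 1589 genes with at least 100 TPM, 378 were listed at 0, which is 23.8%, against 29.5% of all genes.

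**Figure D1:**
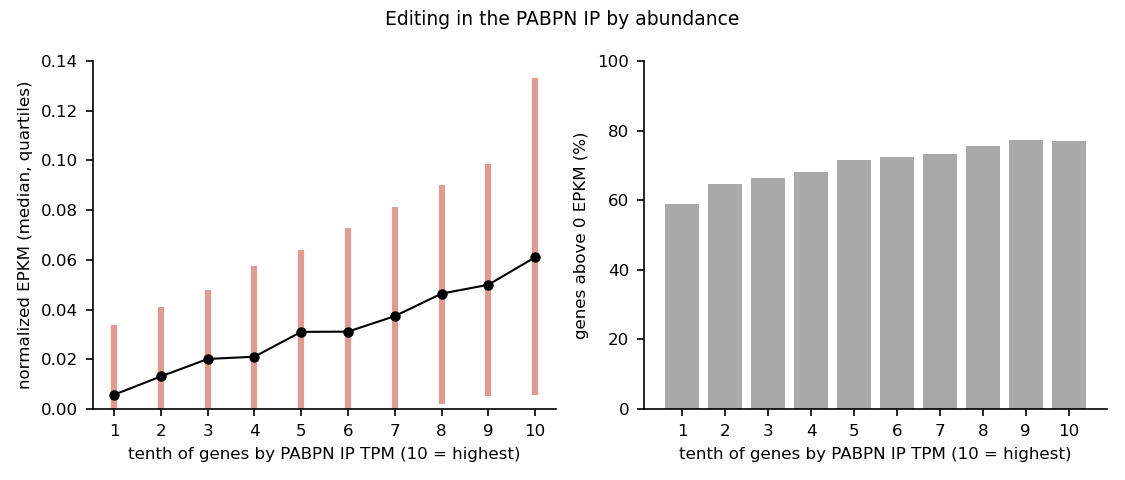
Genes of the PABPN IP in 10 equal groups by TPM on the horizontal axis, with the median (points) and quartiles (bars) of normalized EPKM on the left and the percentage of genes above 0 EPKM on the right. The median climbs from 0.00577 to 0.0611 EPKM, while the lower quartile is 0 in the lowest group and 0.00577 in the highest.

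Just outside the TPM minimum, VSTM2L had 4.99 TPM and 0.0446 EPKM, VEGFC 4.99 TPM and 0 EPKM, and F3 5.00 TPM, rounded up, and 0 EPKM. Just inside it, at 5.00 TPM, ITPKA had 0.0399 EPKM, TM6SF2 0.0359 and PRICKLE1 0.0228. Between 4 and 5 TPM 60.4% of 508 genes were above 0, and between 5 and 6 TPM 60.1% of 439 genes were. The median EPKM of these groups was 0.00901 and 0.00531.

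Because EPKM followed abundance, each gene was also set against the 200 genes nearest to it in PABPN IP TPM, called here genes of like TPM. A gene's percentile is the share of those genes with a lower EPKM, ties being shared evenly, and its log2 ratio is its EPKM over their median after 0.05 was added to both. By construction about as many genes lie above as below: 6203 of 12403, or 50.0%, were above the median of genes of like TPM, and 683, or 5.51%, were at or above the 95th percentile. Among protein-coding genes these shares were 50.1% and 4.60%. At the upper end of abundance the match is loose, since the comparison genes of the most abundant genes reach from 95994 down to 371 TPM.

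The 20 protein-coding genes with the most editing ranged from 0.534 to 1.01 EPKM and from 5.03 to 2568 TPM. All 20 also lay between percentiles 96.5 and 100 among genes of like TPM, as their choice by EPKM made likely. They are described by role.

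Genes of the translation machinery were 5 of the 20. RPL12, a protein of the large ribosomal subunit, was the most edited protein-coding gene with 1.01 EPKM at 909 TPM, and its log2 ratio to genes of like TPM was 3.19. RPSA, the laminin receptor protein of the small subunit, had 0.959 EPKM at 1758 TPM. RPL5, which carries 5S rRNA into the large subunit, had 0.602 EPKM, and RPS3A of the small subunit had 0.576. EEF1A1, the elongation factor that brings aminoacyl-tRNA to the ribosome, had 0.534 EPKM at 2239 TPM.

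Cytoskeletal genes, a chaperone and a glycolytic enzyme were also among the 20. ACTB, cytoplasmic beta-actin, had 0.661 EPKM at 1610 TPM. VIM, the intermediate filament vimentin, had 0.600 EPKM at 144 TPM, above every one of its genes of like TPM. HSP90AA1, the stress-inducible cytosolic HSP90 chaperone, had 0.789 EPKM at 239 TPM. PGK1, the first ATP-producing enzyme of glycolysis, had 0.614 EPKM at 101 TPM.

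Several of the highest values belonged to transcripts of low abundance. S100A6, a small calcium-binding protein, had 0.932 EPKM at only 8.02 TPM, and its log2 ratio of 3.93 was the largest of all protein-coding genes, although with 0.01 added in place of 0.05 it came after H4C9, at 5.28 and 5.67. AHNAK, a giant scaffold protein of the cell cortex, had 0.723 EPKM at 11.3 TPM. IGFBP4, a secreted binding protein of insulin-like growth factors, had 0.631 EPKM at 8.87 TPM. The median EPKM of genes of like TPM was 0.0143 for S100A6, 0.0181 for AHNAK and 0.0145 for IGFBP4.

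Histone genes and genes of other roles completed the 20. The histone genes H3C13, H4C9 and H2BC17 had 0.771, 0.702 and 0.607 EPKM. Histone genes have near-identical copies, and reads may be shared among them, so the value of a single copy is uncertain. RNASEK, an endoribonuclease, had 0.694 EPKM, and TMUB1, a membrane protein with a ubiquitin-like domain, had 0.662. SF3B5, a subunit of the SF3b complex of the spliceosome, had 0.591 EPKM, and TECR, an enzyme of very long-chain fatty acid synthesis, had 0.538. MT-ND2, a mitochondrially encoded subunit of complex I, had 0.816 EPKM at 2568 TPM.

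On hg38, with gene bounds from GENCODE release 44, RPL12 lies at chr9:127447674-127451406 on the minus strand and RPSA at chr3:39406716-39426255 on the plus strand. S100A6 lies at chr1:153534599-153536244 on the minus strand and AHNAK at chr11:62433542-62556235 on the minus strand.

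**Figure D2:**
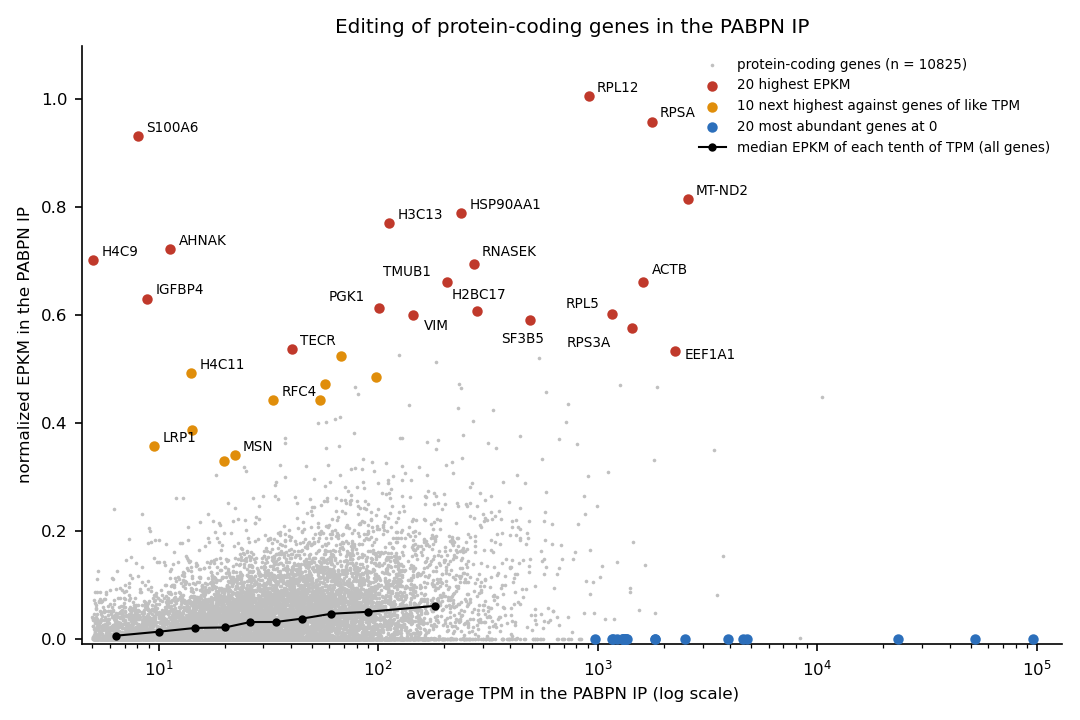
Normalized EPKM (vertical) against TPM on a log scale (horizontal) in the PABPN IP for 10825 protein-coding genes, with the 20 highest in red, 10 more that stand highest against genes of like TPM in orange and the 20 most abundant genes at 0 in blue; the line joins the medians of 10 equal groups of all genes by TPM. RPL12 tops the plot at 1.01 EPKM, S100A6 reaches 0.932 at 8.02 TPM, and MT-CO1 lies at 0 with 95994 TPM.

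Ranking by log2 ratio to genes of like TPM added 10 protein-coding genes to those 20, with ratios from 2.41 to 2.88. With 0.01 added in place of 0.05, 7 of these 10 stayed among the 30 highest ratios. They were less abundant, from 9.57 to 97.8 TPM. Cell cortex and membrane genes were among them: LRP1, a large endocytic receptor, had 0.358 EPKM, the membrane-to-actin linker MSN had 0.341, the actin crosslinker ACTN1 had 0.330 and the membrane microdomain protein FLOT2 had 0.485. RASA1, a GTPase-activating protein for Ras, had 0.388 EPKM. RFC4, a subunit of the clamp loader of DNA replication, had 0.443 EPKM, and the histone reader YEATS4 had 0.442. DAZAP2, a small adaptor protein, had 0.524 EPKM. The histone genes H4C11 and H4C1 had 0.493 and 0.473, with the same limit on shared reads.

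The same genes also have values in the Input and the PABPC IP. The 3 fractions may share control material and were each pooled, so the values are given side by side and no agreement is computed. RPL12 had 1.95 EPKM in the PABPC IP and 2.24 in Input, and RPSA 1.65 and 1.75, all above their PABPN IP values. ACTB had 1.09 EPKM in the PABPC IP and 0.889 in Input. RPL5, with 0.557 and 0.527, and RPS3A, with 0.607 and 0.652, differed little between fractions. The most edited genes of the translation machinery thus had values of at least similar size elsewhere, apart from EEF1A1, which had 0.464 EPKM in the PABPC IP and 0.294 in Input.

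Other top genes had values at or near 0 in the other fractions. Of the 20, 6 were at 0 in the PABPC IP, 8 in the Input and 5 in both. Those 5 were S100A6, MT-ND2, H4C9, SF3B5 and TECR. The 20 were chosen for a high PABPN IP value, which makes lower values elsewhere likely. The shares of all genes at 0 in those fractions are not given here, so nothing is read from these counts. Over all 12403 genes the median was 0.0361 EPKM for the PABPC IP and 0.0180 for the Input. For TECR and SF3B5 the transcript was present in all fractions: TECR had 80.2 TPM in the PABPC IP and 40.5 in Input, and SF3B5 had 972 and 323. S100A6, by contrast, had only 0.141 TPM in the PABPC IP and 0.186 in Input. AHNAK had 0.0153 EPKM in the PABPC IP and 0 in Input, at 0.916 and 0.919 TPM. HSP90AA1 had 0.0519 EPKM in the PABPC IP and 0 in Input, although its abundance was alike, at 286 and 243 TPM. RNASEK had 1.08 EPKM in the PABPC IP and 0 in Input, and TMUB1 had 0 in the PABPC IP and 0.455 in Input.

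**Figure D3:**
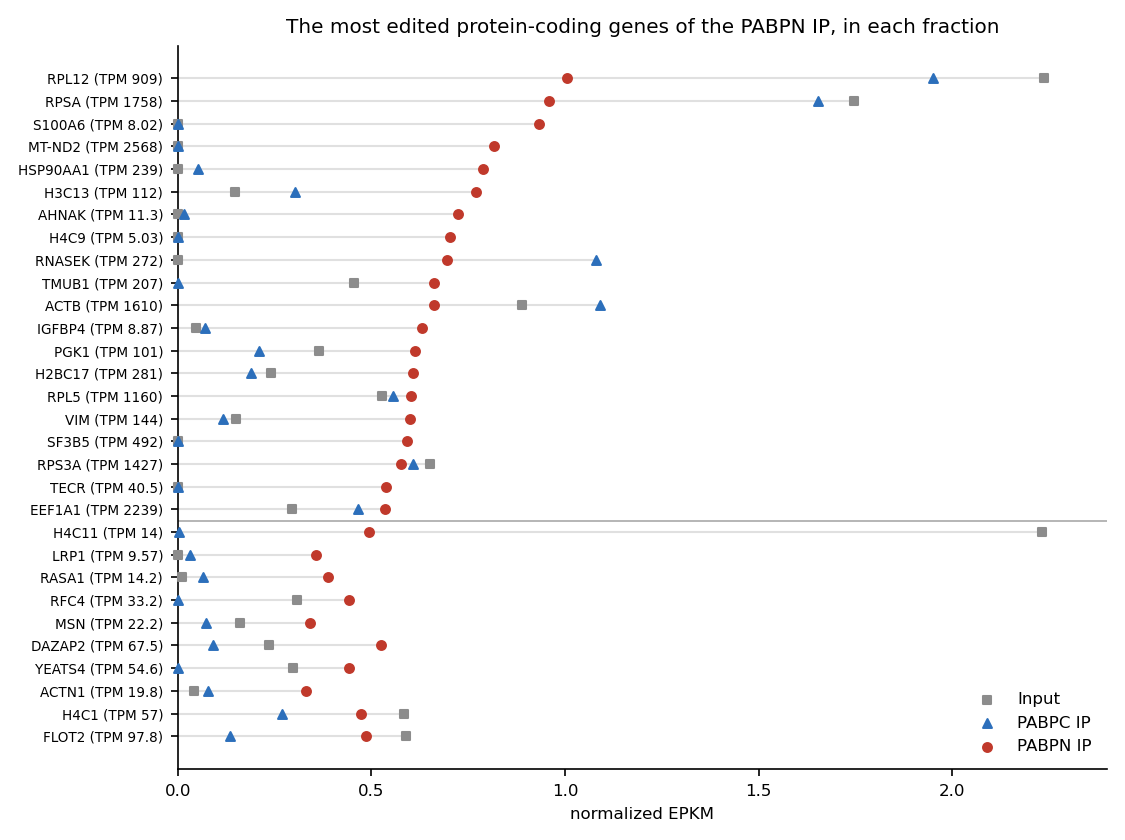
Normalized EPKM (horizontal) of the PABPN IP (circles), PABPC IP (triangles) and Input (squares) for the 20 most edited protein-coding genes, above the line, and the 10 added by ratio to genes of like TPM, below it; TPM is that of the PABPN IP. RPL12 and RPSA are higher in the other fractions, while S100A6, MT-ND2, H4C9, SF3B5 and TECR are at 0 in both.

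Some genes passed the TPM minimum while having little transcript in the other fractions. With a TPM below 1 in both the Input and the PABPC IP, 137 of the 12403 genes met the PABPN IP minimum. These genes, S100A6, AHNAK and H4C9 among them, entered only through the PABPN IP, so nothing is read from their counts. Of them, 81 (59.1%) were above 0 EPKM, against 70.5% of all genes and 58.8% of the lowest of the 10 groups by TPM, and their median was 0.0131 EPKM at a median of 6.46 TPM.

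At the other end, the least edited genes were taken as the most abundant ones listed at 0. The 20 most abundant protein-coding genes at 0 EPKM ranged from 969 to 95994 TPM. With the median of genes of like TPM at 0.0721 EPKM, each had a log2 ratio of -1.29 and a percentile of 13.8. Mitochondrially encoded mRNAs accounted for 8 of the 20. The cytochrome c oxidase subunits MT-CO1, MT-CO3 and MT-CO2 had 95994, 52268 and 23217 TPM, and MT-ND4, MT-ATP6, MT-ATP8, MT-ND4L and MT-ND5 had between 1310 and 4787 TPM.

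The other 12 were nuclear genes, and several encode parts of the translation machinery. EEF2, the translocation factor of elongation, had 1816 TPM and 0 EPKM in the PABPN IP, beside 0.472 EPKM in the PABPC IP and 0.361 in Input. The ribosomal protein genes RPS6, RPS12, RPLP0 and RPL10A were at 0 with 1357, 1289, 1171 and 969 TPM, and their PABPC IP values ran from 0.231 EPKM for RPL10A to 0.474 for RPS6. CKB, the brain-type creatine kinase, was at 0 with 1156 TPM, beside 0.644 EPKM in the PABPC IP and 1.13 in Input. Of these genes RPLP0 was also at 0 in the Input, and the others were above 0 in both other fractions.

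The remaining genes of the 20 had various roles. ODC1, the first enzyme of polyamine synthesis, had 1816 TPM, and ATF4, the transcription factor of the integrated stress response, had 1350. FTL, the ferritin light chain, had 1304 TPM, and GPX1, a selenoprotein that reduces peroxides, had 1298. The values of these genes in the PABPC IP were 0.0334 EPKM for ODC1, 0.109 for ATF4 and 0 for FTL and GPX1. EI24, a protein of the endoplasmic reticulum, and IRS4, an insulin receptor substrate, were at 0 with 1344 and 1221 TPM. IRS4 was far more abundant in the PABPN IP than in the PABPC IP, where it had 166 TPM and 0.127 EPKM.

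Ribosomal protein and elongation factor mRNAs were thus among the 20 highest and among the 20 most abundant at 0. They are known to share a start. Their 5′ terminal oligopyrimidine (TOP) begins with a C followed by an unbroken pyrimidine run, which ties their translation to growth signals. Starts from RefSeq (GRCh38.p14) were found for 8872 of the protein-coding genes. Of all 35116 RefSeq starts, 1429 (4.07%) have a C at the start followed by at least 4 bases that are each C or T. Shown 5′ to 3′ are 5 bases before and 20 bases from the start, with the pyrimidine run from the start in capitals, for 4 genes with high EPKM and 4 genes listed at 0, chosen after the values were seen to show that both ends carry the run. RPL12 is at chr9:127451387-127451411 (minus strand), RPSA at chr3:39406715-39406739 (plus), RPS3A at chr4:151099623-151099647 (plus) and EEF1A1 at chr6:73521013-73521037 (minus). EEF2 is at chr19:3985444-3985468 (minus), RPS6 at chr9:19380217-19380241 (minus), RPS12 at chr6:132814564-132814588 (plus) and RPLP0 at chr12:120201092-120201116 (minus).
RPL12: tccggCCTCTCggctttcggctcgg
RPSA: cctgtCTTTTCCgtgctacctgcag
RPS3A: ttccgCCCTTTTggctctctgacca
EEF1A1: acgttCTTTTTCgcaacgggtttgc
EEF2: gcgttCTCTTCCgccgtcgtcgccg
RPS6: tggccCTCTTTTCCgtggcgcctcg
RPS12: gaggcCTCTTTCCCTgccgccgccg
RPLP0: gaggcCCTTCTCTCgccaggcgtcc

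The first 4 genes, at 0.534 to 1.01 EPKM, have runs of 6 to 7 bases, and the last 4, at 0, have runs of 7 to 10 bases. Over the 690 protein-coding genes with such a start, the median was 0.0366 EPKM and 53.8% were above the median of genes of like TPM. Over the 8182 with another start, the median was 0.0293 EPKM and 49.9% were above it. Without ribosomal protein genes, 642 genes with a pyrimidine start remained, and 52.2% were above. A start was not found for every one of the 85 cytosolic ribosomal protein genes. Those with the run had 36 of 48 members above (75.0%), and those with another annotated start 12 of 20 (60.0%).

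Gene families were listed by symbol and known membership, and 41 of 42 families had at least 5 members with a TPM of 5 or more. Their median percentile among genes of like TPM ranged from 13.8 to 95.5. It was above 50 for 26 families and below 50 for 15, and 10 families reached 70 while 5 were at or below 40. Counts above the median of genes of like TPM are read against the 50.0% over all genes. Counts at or above the 95th percentile are read against 5.51%. Each share was computed again under 7 alternatives, which changed the TPM minimum, the number or kind of comparison genes, or the scale. The alternative scale, EPKM divided by TPM and set against the median of all genes, put some families on the other side of 50%, as given with each.

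**Figure D4:**
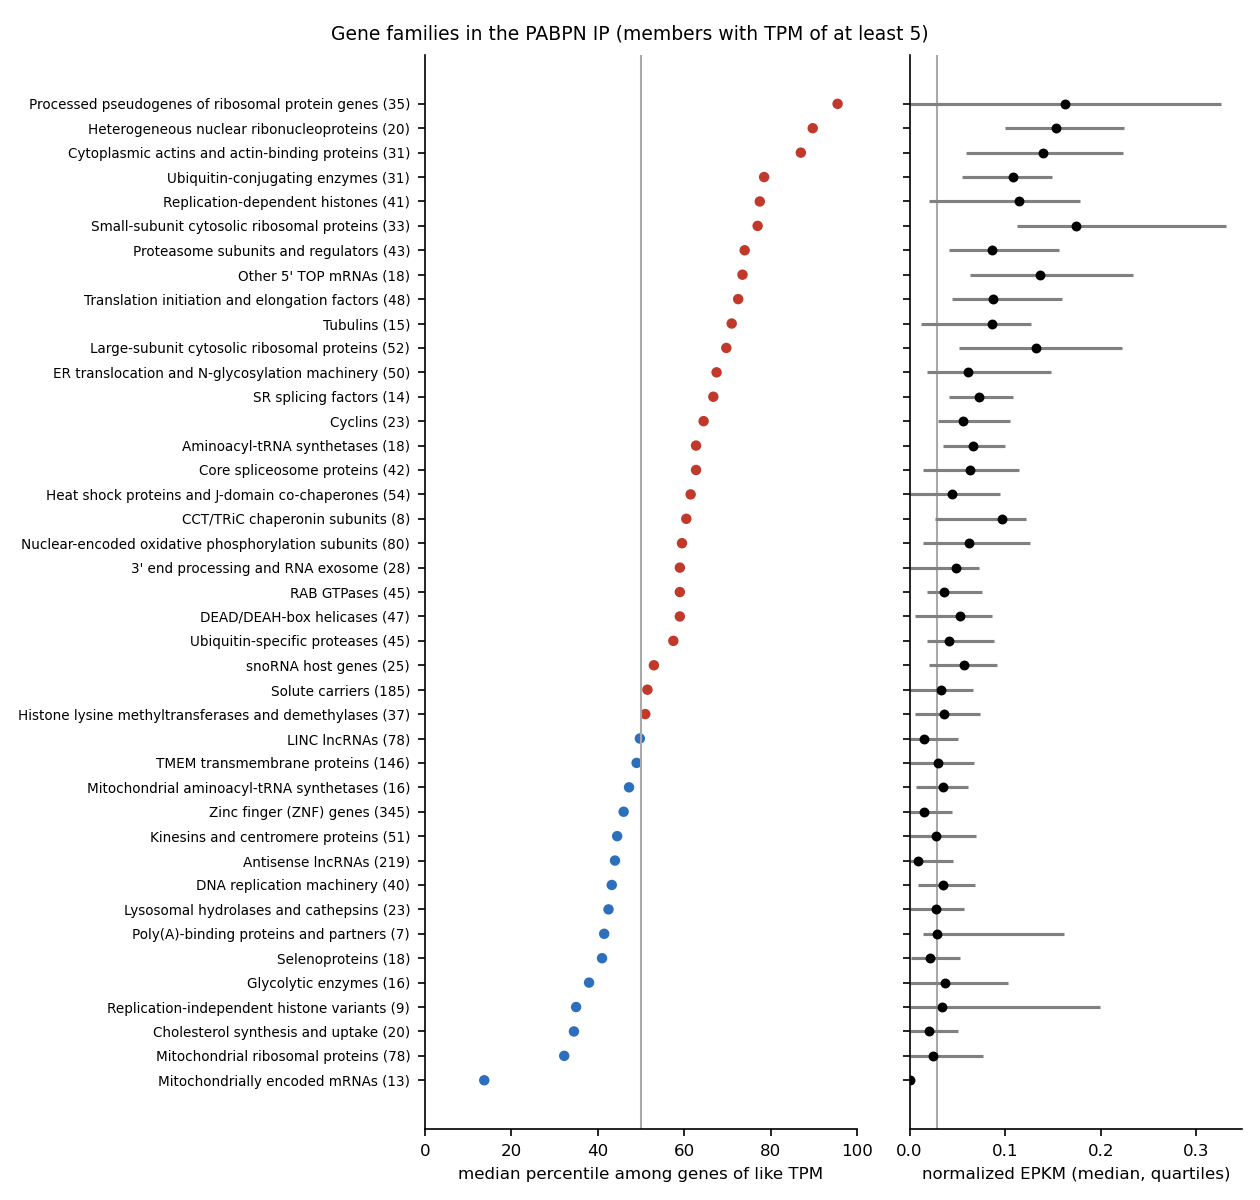
Each family of at least 5 genes in the PABPN IP (number of genes in brackets) with its median percentile among genes of like TPM on the left, red above 50 and blue below, and its median (point) and quartiles (bar) of normalized EPKM on the right; the grey line on the right is the median of all genes, 0.0284. Heterogeneous nuclear ribonucleoproteins stand at 89.8 and mitochondrially encoded mRNAs at 13.8; with EPKM divided by TPM, ribosomal proteins, translation factors, SR factors and tubulins fall below 50% of members above the median of all genes.

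Relative to genes of like TPM, heterogeneous nuclear ribonucleoproteins (hnRNPs) led the protein-coding families. Of 20 hnRNP genes, whose products package new transcripts and act in their splicing, 19 were above the median of genes of like TPM and 7 were at or above the 95th percentile. Their median was 0.153 EPKM, beside 0.0819 in the PABPC IP and 0.169 in Input. HNRNPF had 0.353 EPKM, HNRNPK 0.336 and HNRNPAB 0.265, and only HNRNPH3 was at 0, with 48.9 TPM. The share stayed between 75.0% and 95.2% in every alternative.

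Other families of RNA processing had lower shares. All 14 SR splicing factors were above 0 EPKM, and 9 were above the median of genes of like TPM (64.3%), but 28.6% were with EPKM divided by TPM. SRSF9 had 0.251 EPKM and SRSF1 0.207. Of 42 core spliceosome proteins 26 were above (61.9%), from SF3B5 at 0.591 EPKM and SF3A3 at 0.314 to SNRPB, at 0 with 732 TPM. Genes of 3′ end processing and the RNA exosome had 16 of 28 members above (57.1%), near the background, and the highest value was that of NUDT21 of the cleavage factor, 0.278 EPKM, while the cleavage and polyadenylation subunit CPSF1 was at 0.

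Actin genes and their binding proteins came next, with 26 of 31 above the median of genes of like TPM. At or above the 95th percentile were 9 (29.0%), against 5.51% of all genes. The family's median was 0.140 EPKM, beside 0.0978 in the PABPC IP and 0.105 in Input. Besides ACTB and MSN, the actin monomer binder PFN1 had 0.470 EPKM. The severing factor CFL1, the Arp2/3 subunit ARPC3 and the tropomyosin TPM4 were at 0, with 246, 59.6 and 36.2 TPM. In every alternative the share was between 67.7% and 83.9%. Tubulins and their complex partners had 9 of 15 members above (60.0%), but 46.7% with EPKM divided by TPM; TUBA1A was highest at 0.312 EPKM.

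Ubiquitin-conjugating enzymes had 25 of 31 members above the median of genes of like TPM and a median of 0.108 EPKM, led by UBE2R2 at 0.256 and UBE2E1 at 0.228, with UBE2S at 0 and 324 TPM. Proteasome subunits and regulators had 33 of 43 above (76.7%), with a median of 0.0868 EPKM. The core subunit PSMA3 had 0.282 EPKM, and the ATPases PSMC4 and PSMC5 of the regulatory particle had 0.273 and 0.258. The assembly chaperones PSMG3 and PSMG1 and the inhibitor PSMF1 were at 0. Both families stayed above 50% in every alternative. Ubiquitin-specific proteases had 28 of 45 members above (62.2%), led by USP9X at 0.318 EPKM.

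In absolute EPKM the cytosolic ribosomal proteins were among the highest families, with a median of 0.142 over 85 genes. Of these, 64 (75.3%) were above the median of genes of like TPM, but only 28.2% were above the median of all genes with EPKM divided by TPM. The small-subunit genes had the highest median of the protein-coding families, 0.174 EPKM, and 27 of 33 above, but 27.3% with EPKM divided by TPM. For the large subunit the median was 0.133 EPKM and 37 of 52 were above, but 28.8% with EPKM divided by TPM. Members spread from RPL12 at 1.01 EPKM to 11 genes at 0. Those 11 are 12.9% of the family, against 29.5% of all genes and 23.1% of the highest of the 10 groups by TPM. RPL30 had 0.514 EPKM, whereas RPL32 was at 0 with 842 TPM. The family's medians were 0.400 EPKM in the PABPC IP and 0.422 in Input, above that of the PABPN IP.

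RPS2 itself, the partner of the deaminase in the fusion, had 0.447 EPKM at 10493 TPM and a percentile of 94.0. It had 0.101 EPKM in the PABPC IP and 0.126 in Input. Reads of the introduced RPS2 construct cannot be told apart from those of the endogenous gene.

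Other parts of the translation apparatus lay between. Translation initiation and elongation factors had 35 of 48 members above the median of genes of like TPM, but 39.6% with EPKM divided by TPM, and a median of 0.0873 EPKM. EIF4G2, a scaffold of initiation, had 0.289 EPKM and EIF2B1, of the eIF2 exchange factor, 0.256, while EEF2, EIF6 and EIF3B were at 0. Other mRNAs known to start with a TOP had 14 of 18 above, but 38.9% with EPKM divided by TPM. All 18 cytosolic aminoacyl-tRNA synthetases were above 0 EPKM, and 13 were above the median of genes of like TPM, with 50.0% by EPKM divided by TPM. EPRS1 was highest at 0.218 EPKM and HARS1 lowest of the named ones at 0.0117. Mitochondrial aminoacyl-tRNA synthetases had 8 of 16 above, and between 37.5% and 53.3% over the alternatives, with IARS2 highest at 0.107 EPKM.

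Poly(A)-binding proteins and their partners were divided. PABPC1 had 0.309 EPKM at 1115 TPM and a percentile of 89.5, and PABPN1 had 0.237 at 355 TPM and a percentile of 93.5. PABPC4 had 0.000879 EPKM at 179 TPM and a percentile of 25.0. Of the 7 family members 3 were above the median of genes of like TPM (42.9%), but 14.3% were above that of all genes with EPKM divided by TPM. PABPN1 was at 0 in the PABPC IP and had 0.235 EPKM in the Input.

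Replication-dependent histones had 29 of 41 members above the median of genes of like TPM. Against 5.51% of all genes, 16 (39.0%) were at or above the 95th percentile, the largest such share of the families of protein-coding genes. Their median was 0.114 EPKM, with H1-4, H1-2 and H2AC12 at 0 and 563, 406 and 319 TPM. At 497 bases, the median exonic length of these histone genes was below the 4998.5 of all genes. Their transcripts were less abundant in the PABPN IP than in the Input, with median TPM of 78.6 and 888. The polyadenylated replication-independent variants had 3 of 9 above, with H3-3B at 0.295 EPKM and H1-10 and H2AZ2 at 0.

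Genes of the secretory route, chaperones and cyclins differed from each other. Of 50 genes of translocation into the endoplasmic reticulum and N-glycosylation, 34 were above the median of genes of like TPM (68.0%). SRP14 of the signal recognition particle had 0.357 EPKM, and the oligosaccharyltransferase subunits RPN2 and STT3A had 0.323 and 0.291. Heat shock proteins and J-domain co-chaperones had 29 of 54 above (53.7%), near the background, with HSPA5 at 0.411 EPKM and HSP90AB1 at 0.364 beside HSP90AA1. CCT chaperonin subunits had 5 of 8 above, but 37.5% with EPKM divided by TPM. Cyclins had 18 of 23 above, from CCND1 at 0.318 EPKM to the mitotic cyclin CCNA2, at 0 with 253 TPM.

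Solute carriers had 98 of 185 members above the median of genes of like TPM (53.0%), and SLC25A5, an ADP/ATP carrier, was highest at 0.370 EPKM. TMEM proteins had 70 of 146 (47.9%), but between 47.6% and 51.4% over the alternatives. RAB GTPases had 27 of 45 above (60.0%) and DEAD/DEAH-box helicases 30 of 47 (63.8%). Histone lysine methyltransferases and demethylases had 19 of 37, but between 48.6% and 54.1% over the alternatives. Nuclear-encoded subunits of oxidative phosphorylation had 46 of 80 above (57.5%), but 45.0% with EPKM divided by TPM, and NDUFA1 of complex I was highest at 0.373 EPKM.

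Mitochondrial ribosomal proteins had a lower share than the cytosolic ones, but with EPKM divided by TPM the order was reversed, at 37.2% and 28.2%. Among genes of like TPM, 35 of 78 were above the median of genes of like TPM (44.9%), 34 were at 0, and the median was 0.0246 EPKM at a median of 72.5 TPM. MRPS7, MRPS16 and MRPL45 were highest, at 0.190, 0.189 and 0.187 EPKM. MRPL12, MRPL41 and MRPS26 were at 0, with 828, 300 and 250 TPM. The family's medians were 0.0666 EPKM in the PABPC IP and 0.0584 in Input, and the share in the PABPN IP lay between 37.2% and 44.9% in every alternative.

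The 13 mitochondrially encoded mRNAs had the lowest median percentile of the families, 13.8, and a median of 0 EPKM. Above the median of genes of like TPM were 3 (23.1%), beside 22.2% of selenoproteins. Only 4 of the 13 were above 0 EPKM, against 70.5% of all genes. MT-ND2 held the largest value, with MT-ND3 at 0.154 EPKM and MT-ND1 at 0.0810. MT-ND2 and MT-ND3 were at 0 in both other fractions. The family's median TPM in the PABPN IP was 3913, beside 904 for the PABPC IP and 1768 for the Input.

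Of 20 genes of cholesterol synthesis and uptake 6 were above the median of genes of like TPM (30.0%, the same in every alternative), and the median was 0.0208 EPKM, beside 0.0767 in the PABPC IP. EBP, a sterol isomerase, had 0.224 EPKM, while INSIG1, IDI1 and PMVK were at 0. Among glycolytic enzymes PGK1 had 0.614 EPKM, GAPDH 0.467 and ALDOA 0.196, but TPI1, ENO1 and LDHB were at 0 with 690, 530 and 213 TPM. In that family 7 of 16 were above the median of genes of like TPM (43.8%), and 25.0% were above that of all genes with EPKM divided by TPM. The family had a median of 0.0369 EPKM, above the 0.0284 of all genes, beside 0.119 in the PABPC IP and 0.127 in Input.

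Selenoproteins, whose synthesis recodes a stop codon, had 4 of 18 members above the median of genes of like TPM (22.2%). None was at or above the 95th percentile, which for so few members is near the 5.51% of all genes. SELENON was highest at 0.109 EPKM, and GPX1, SELENOH and SELENOI were at 0. Of the lysosomal hydrolases and cathepsins also none was at or above the 95th percentile, again near the 5.51% of all genes for so few members. In this family 8 of 23 were above the median of genes of like TPM (34.8%), with GUSB highest at 0.145 EPKM and CTSB at 0. Both families stayed below 50% in every alternative.

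Genes of DNA replication had 16 of 40 members above the median of genes of like TPM (40.0%), although RFC4 and POLE3 reached 0.443 and 0.405 EPKM. PCNA, the sliding clamp, was at 0 with 326 TPM. Kinesins and centromere proteins had 24 of 51 above, from the centromeric histone CENPA at 0.372 EPKM to CENPX at 0. Zinc finger (ZNF) genes were the largest family, and 145 of 345 were above (42.0%), with a median of 0.0146 EPKM. At or above the 95th percentile were 6 of them (1.74%), against 5.51% of all genes. ZNF428 was highest at 0.237 EPKM, and ZNF768, ZNF593 and ZNF581 were at 0 with 325, 235 and 127 TPM. The share of ZNF genes stayed below 50% in every alternative.

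**Figure D5:**
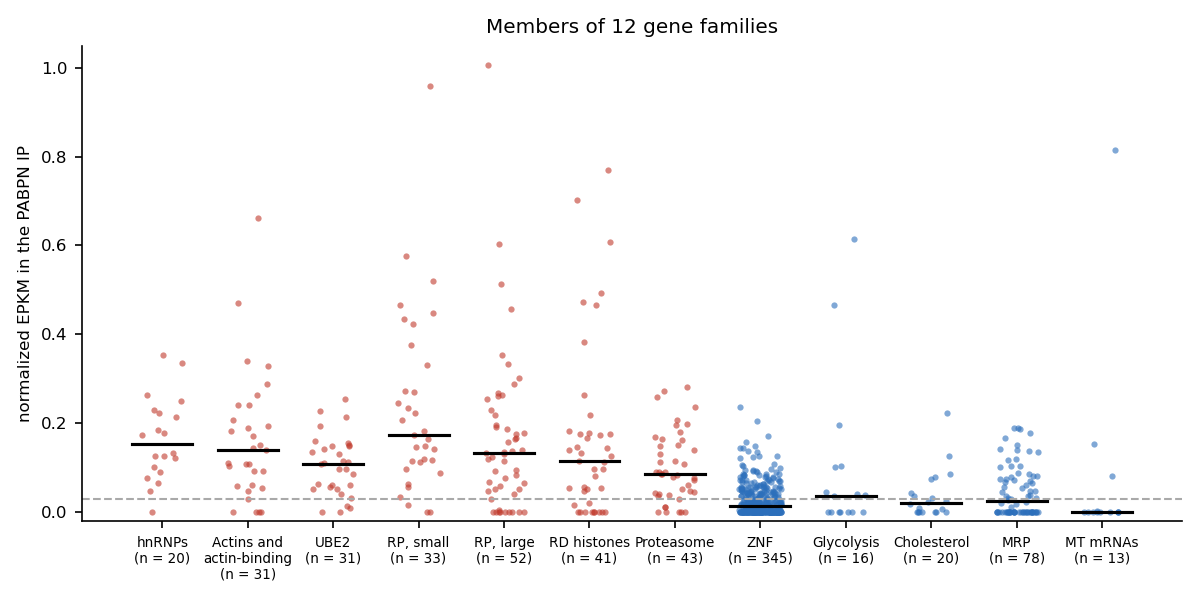
Normalized EPKM in the PABPN IP for each member (points) of 12 families, with the family median as a black bar and the median of all genes, 0.0284, as a dashed line; red families have a median percentile above 50 among genes of like TPM and blue ones below. Ribosomal proteins (RP) reach 1.01 EPKM with 11 members at 0 (12.9%, against 29.5% of all genes). With EPKM divided by TPM only 28.2% of them lie above the median of all genes. Zinc finger genes (ZNF) crowd near 0 with a median of 0.0146. MRP, RD and UBE2 stand for mitochondrial ribosomal proteins, replication-dependent histones and ubiquitin-conjugating enzymes.

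Among genes that code for no protein, pseudogenes held the largest values. SNRPGP10, a processed copy of a small nuclear ribonucleoprotein gene, had 2.07 EPKM at 82.6 TPM, the highest of all 12403 genes. MTCO1P2, a nuclear copy of a mitochondrial gene, had 1.29 EPKM, RPS27AP16 had 1.02 and RPSAP47 had 0.977. Of the 10 highest genes of this kind 7 were of the annotated class of processed pseudogenes, and RPS27AP16 was of the class of transcribed processed pseudogenes. Processed pseudogenes had a median of 0.0701 EPKM and 54 of 135 (40.0%) were at or above the 95th percentile, against 5.51% of all genes. Processed pseudogenes of ribosomal protein genes had a median of 0.163 EPKM, with 18 of 35 (51.4%) at or above the 95th percentile. Reads may be shared with the parent gene, so the source of these edits is uncertain. Processed pseudogenes are also short, with a median exonic length of 579 bases against 4998.5 over all genes, and SNRPGP10 has 225.

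The 1059 long noncoding RNAs (lncRNAs) had a median of 0.0131 EPKM at a median of 11.4 TPM, with 58.9% above 0. Of these, 46.6% were above the median of genes of like TPM and 7.93% at or above the 95th percentile, against 50.0% and 5.51% of all genes. Antisense lncRNAs had 93 of 219 above the median of genes of like TPM (42.5%) and a median of 0.00932 EPKM. The libraries are described as stranded, but edits on an antisense gene may still come from an overlapping sense transcript. HOXC-AS1 was highest at 0.365 EPKM, and VPS9D1-AS1 was at 0 with 387 TPM. LINC genes had 38 of 78 above (48.7%), but between 36.8% and 51.3% over the alternatives. Host genes of snoRNAs had 13 of 25 above, but fewer than 50% with EPKM divided by TPM, with SNHG9 at 0.406 EPKM.

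Small and nuclear RNAs ranged from 0 to high values. The small nuclear RNA 7SK, a regulator of transcription elongation, had 28629 TPM and 0 EPKM. NEAT1, the scaffold of paraspeckles, was at 0 with 55.8 TPM, and the telomerase RNA TERC was at 0 with 257. MALAT1, of nuclear speckles, had 0.0214 EPKM at 208 TPM and a percentile of 22.0. RNU4-1, a spliceosomal RNA, had 0.648 EPKM at 25.1 TPM, with 0 in both other fractions. By annotated class, 16 of 24 small nuclear RNAs were at 0 (66.7%), against 29.5% of all genes. At or above the 95th percentile were 5 (20.8%), against 5.51% of all genes. The 15 genes of the class of miscellaneous RNA had a median of 0.114 EPKM. Of these, 7 (46.7%) were at or above the 95th percentile, against the same 5.51%. The median exonic length was 279 bases for miscellaneous RNA and 133.5 for small nuclear RNAs, against 4998.5 over all genes. EPKM is counted per kilobase, and the part of such short lengths in these values was not tested.

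Base composition and length varied modestly with editing. Of the 12403 genes, 12382 were found in GENCODE 44. Protein-coding genes at 0 EPKM had a median GC content of 50.7%, and those in the 4 classes above 0 had medians of 47.2% to 47.6%. Median exonic length was 4899 bases at 0, 6303 in the lowest class above 0 and 4511 in the highest, above 0.0906 EPKM. The share of exonic bases that are a C after an A or U was between 10.5% and 10.7% in every class. Across 10823 protein-coding genes, Spearman's rho with the percentile among genes of like TPM was -0.0949 for GC content and 0.0252 for exonic length; genes are not independent and all values come from the same libraries.

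After the values were seen, S100A6, IGFBP4 and COL1A1 led to a list of 45 genes typical of fibroblasts and mesenchymal cells, which includes VIM. In the deposited values 34 of them appear, and 11, among them COL1A2, THY1, LUM and DCN, do not. With a TPM of at least 5 there were 17, of which 14 were above 0 EPKM, 13 above the median of genes of like TPM and 5 at or above the 95th percentile, beside shares of 70.5%, 50.0% and 5.51% of all genes. Those 5 were S100A6, IGFBP4, VIM, the caveolar protein CAV1 and the tropomyosin TPM1. Other members lay low: COL6A1, TIMP1 and IGFBP5 were at 0 EPKM with 29.3, 25.3 and 18.7 TPM. TIMP3, at 19.5 TPM, had a percentile of 47.5. Since S100A6, IGFBP4 and COL1A1 prompted the list, the counts were also taken without them. Of the 15 genes left, 12 were above 0, 11 above the median of genes of like TPM and 3 at or above the 95th percentile. VIM, already among the 20 most edited genes, is still 1 of these 3. Because the list was drawn up from the same values, its counts are a description and no independent support.

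Over the 34 genes the summed level in the PABPN IP was 391 TPM, beside 471 for the PABPC IP and 310 for the Input, and VIM was the most abundant in each, at 144, 241 and 184. Without VIM the sums were 247, 230 and 127 TPM. Their summed editing was 4.53 EPKM for the PABPN IP, beside 1.01 for the PABPC IP and 0.527 for the Input, and without VIM it was 3.93, 0.890 and 0.377. Without S100A6, IGFBP4 and COL1A1, whose high values in the PABPN IP led to the list, the sums of the 31 genes left were 2.40, 0.907 and 0.461 EPKM, and without VIM as well 1.80, 0.790 and 0.310. At 0.1 EPKM or more there were 12 of the 34 genes for the PABPN IP, 3 for the PABPC IP and 1 for the Input; without S100A6, IGFBP4 and COL1A1 there were 9, 3 and 1. Over all 16905 genes with a TPM, 12.2% reached 0.1 EPKM in the PABPN IP, 15.8% for the PABPC IP and 11.3% for the Input. None of the 34 was at 0 TPM in the PABPN IP, the PABPC IP or the Input, and COL3A1 had 0.293 in the PABPN IP. The part of such transcripts in the values of S100A6, AHNAK, IGFBP4, LRP1 and VIM was not tested.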

How the data were processed

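RNA from Input, PABPN IP and PABPC IP was sequenced from both lines and aligned to hg38 by the authors. The signal is the deposited normalized EPKM, which the authors made by counting C-to-U edits per kilobase, scaled to mapped reads, and subtracting Control-STAMP. The authors also made the average TPM of each fraction, which counts exonic and intronic reads. The files do not say how replicates were merged. The design's fits over replicates and blocks could not be run, because the values are pooled to 1 per gene and fraction.

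Genes with at least 5 TPM in the PABPN IP were kept. Percentiles, medians and log2 ratios (0.05 added) used the 200 genes nearest in TPM, 100 on each side where possible. Named genes were the 20 highest and 10 further by ratio, the 20 most abundant at 0, the same ends of genes that code for no protein (10 each), up to 3 at each end of every family, and RPS2 with PABPN1, PABPC1 and PABPC4. Some named genes are not reported here. Families were matched by symbol patterns and lists. The members and lists were chosen with earlier results of these data known. Gene types, lengths and composition came from GENCODE 44 and starts from RefSeq. Alternatives changed the TPM minimum, comparison genes, scale and added constant. The calculation was tested on simulated data. Tables were handled with pandas 2.3.3 and NumPy 2.4.6 under Python 3.11.15, rank correlations with SciPy 1.17.1 and plots with matplotlib 3.10.9.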

Additional observations from a re-analysis of the deposited data

Results flagged for a closer look

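Signal lay in genes outside those described. Of the 1964 genes without a TPM, 1068 had an EPKM above 0 in the PABPN IP (54.4%), with a maximum of 1.04. Of the 4502 genes with a PABPN IP TPM below 5, 2436 had an EPKM above 0 (54.1%), with a median of 0.00224.

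Among protein-coding genes below the TPM minimum, the histone gene H4C13 was highest at 0.597 EPKM and 0.112 TPM, followed by COL1A1 at 0.566 EPKM and the histone gene H4C6 at 0.526 EPKM and 0 TPM. JAG1, a Notch ligand, had 0.189 EPKM at 3.60 TPM. What lies behind these values was not tested.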

How the results depend on the processing

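No paired analysis was possible because each fraction has 1 pooled value per gene; for the same reason leave-one-out runs and a replicate block were not run. The files do not give the number of reads behind each gene's value.

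The median of 0.0284 EPKM became 0.0199 with a TPM of at least 1, 0.0331 with at least 10, 0.0167 over every gene with a TPM, 0.0328 with at least 5 TPM in both IPs, 0.0298 over protein-coding genes and 0.0507 over genes above 0; the mean was 0.0495. The share above 0, 70.5%, was 68.0%, 72.2%, 66.1%, 72.1% and 72.0% in the first 5 of these settings, and 63.3% above 0.01 EPKM. The rho of 0.261 was 0.323, 0.222, 0.349 and 0.234 in the first 4. An alternative chosen after seeing the data, at least 2 TPM in the Input or PABPC IP, gave a median of 0.0266 and a share of 70.0%. These settings take in more or fewer genes of low TPM, or of genes at 0.

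Of 42 family results, 26 stayed on the same side of 50% in all 7 alternatives. With EPKM divided by TPM the share of cytosolic ribosomal proteins went from 75.3% to 28.2% and that of ZNF genes from 42.0% to 48.4%; the cause was not tested. In the other alternatives the ribosomal proteins stayed between 72.9% and 77.6%. The 683 genes at or above the 95th percentile became 583 to 845. By EPKM divided by TPM there were 620, of which 312 were among the 683. Against genes alike in exonic length within the same of the 10 groups by TPM there were 691, of which 478 were among the 683. Of the 30 protein-coding genes with the highest log2 ratio, 21 were kept with 0.01 added in place of 0.05 and 28 with 0.1.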

Other observations

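Of the mesenchymal list, 17 genes lay below the TPM minimum, COL1A1 among them. Their EPKM in the PABPN IP had a median of 0.0310, beside 0.00224 over all genes below the minimum, with 6 genes at 0.1 or more. Without COL1A1, which helped to prompt the list, 5 of 16 reached 0.1, against 189 of the 4502 genes below the minimum (4.20%). The list itself was drawn up after the values were seen. MMP2 and ANXA1 were at 0, and COL3A1, TAGLN and COL5A2 had 0.00244, 0.00566 and 0.00671. SPARC, a matrix glycoprotein, had 0.182 EPKM at 1.16 TPM, and FN1, fibronectin, had 0.165 at 3.17 TPM. IGFBP7 had 0.186 EPKM at 1.97 TPM. In the Input, SPARC, FN1 and IGFBP7 were at 0 EPKM.

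Nuclear copies of mitochondrial genes held values at both ends. MTCO1P2 had 1.29 EPKM at 11.5 TPM, whereas MTATP6P1 and MTCO1P12 were at 0 with 382 and 207 TPM.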
